A study of Mus musculus with 27 samples.

Results

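Normal olfactory mucosa was described here from 9 arrays, the part of a 27-array series that carried RNA of untreated mice. Its members were chosen by their titles alone: 3 biological replicates, numbered 1 to 3, each hybridized to 3 arrays with the letters a to c. The labels give female FVB mice of 25 days with the condition "normal", and the design text calls this mucosa untreated. A treatment note shared by all samples of the series also mentions a sham cautery of the muzzle, without saying which mice received it. The number of mice behind a replicate was not stated in the labels read here.

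The olfactory mucosa lines the back of the nasal cavity. Its odor-sensing neurons each display 1 odorant receptor on their cilia, where a G protein and adenylyl cyclase open a channel gated by cyclic nucleotides. Sustentacular cells surround the neurons and are rich in enzymes that break down foreign chemicals, and Bowman's glands secrete the mucus that covers the surface. Basal cells renew the neurons, and below the epithelium lie axon bundles with ensheathing glia, blood vessels, connective tissue, and the cartilage and bone of the turbinates.

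Each array gives the fluorescence intensity of 29922 probes, and 21020 of these carry a gene symbol. A gene with several probes is represented by its brightest, which left 16637 named genes. Levels are given as log2 of the intensity after the 9 arrays were set to 1 distribution, so that 1 unit is a doubling, and every fold is taken between replicate means on this normalized scale, also where deposited intensities are printed beside it and the median named gene lies at 8.43. A probe counts as measured above noise where its deposited intensity passes a limit set from the negative values of that array, between 11.9 and 24.1 intensity units, and as saturated where it reaches 99.5% of the array's highest value. Brightness depends on the probe's own sequence as well as on the RNA, so an order of genes is an order of probes. In whole tissue, fewer cells of a type and less RNA per cell cannot be told apart.

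Replicate 2 stood apart before normalization. Its arrays had median intensities of 274, 269 and 209, against 131 to 174 on the other 6. Arrays of 1 replicate correlated at a median of 0.960 over all probes (lowest 0.951, highest 0.976), and arrays of different replicates at 0.951 (0.936 to 0.963). No probe differed between the letters a, b and c in limma's F test at an adjusted p under 0.05, with 1046 at an unadjusted p under 0.05. The letter was the only factor in that test. Differences between replicates thus stayed in its residual spread and could hide an effect of the letter. Of the Y-linked genes measured in these mice labelled female, Uty was below noise on all 9 arrays, while Kdm5d and Eif2s3y were above it on all 9, with means of 8.71 and 7.56. Eif2s3y differed between replicates, at 6.18, 8.45 and 8.05 (adjusted p = 0.020, limma F test). Both genes have close copies on the X chromosome, and whether their probes also bind those was not tested.

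The tissue label was borne out by the genes that define it. Omp, the olfactory marker protein of mature sensory neurons, was saturated on all 9 arrays, so that its probe gives only a lower bound. A second Omp probe read 14.02, 13.75 and 14.36 in replicates 1, 2 and 3 (adjusted p = 0.068, limma F test). Cnga2, the channel subunit that opens in response to odor, read 15.70 ± 0.17, 15.14 ± 0.12 and 15.54 ± 0.05 (SD over 3 arrays each). Replicate 2 lay below the other replicates on all its arrays (adjusted p = 0.045, limma F test), and the widest difference was 1.48-fold. Stoml3, a membrane protein of sensory cilia, read 14.18 ± 0.19, 14.70 ± 0.09 and 14.91 ± 0.16, lowest in replicate 1 (adjusted p = 0.032, limma F test). Adcy3, the adenylyl cyclase of the cilia, had a nearly even level of 14.63, 14.60 and 14.70.

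Markers of younger cells were dimmer than those of mature neurons. Gap43, a growth-cone protein of immature neurons, read 8.78 ± 0.55, 9.22 ± 0.63 and 9.09 ± 0.24 (SD over 3 arrays each). Its arrays overlapped between all 3 replicates (adjusted p = 0.64, limma F test). Krt5, the keratin of the resting horizontal basal cells, read 9.32 ± 0.19, 8.66 ± 0.36 and 9.34 ± 0.18 (adjusted p = 0.087). Both genes were above noise on every array.

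The markers of secretion and of the tissue below the epithelium varied more. Obp2a, an odorant-binding lipocalin released into the mucus, read 12.96 ± 0.12 in replicate 1, 15.99 ± 0.01 in replicate 2 and 15.90 ± 0.03 in replicate 3 (SD over 3 arrays each). Its replicates 2 and 1 differed at least 8.18-fold, as the probe was saturated on all 3 arrays of replicate 2 (adjusted p = 1.5e-05, limma F test). Replicate 1 was therefore the low one for Obp2a, with no overlap. Chil4, a secreted chitinase-like protein, showed another order, at 13.86 ± 0.16, 14.96 ± 0.07 and 13.72 ± 0.09 (adjusted p = 0.0036). Here replicate 2 alone was high, and a second Chil4 probe gave 10.304, 12.56 and 10.99. Spp1, the bone and matrix protein osteopontin, read 15.21 ± 0.02, 15.96 ± 0.08 and 15.68 ± 0.09, with 2 arrays of replicate 2 saturated (adjusted p = 0.012). When arrays were centred on their medians instead, the difference in Spp1 between replicates 2 and 1 was -0.07 (adjusted p = 0.46), so its order is not settled.

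**Figure D1:**
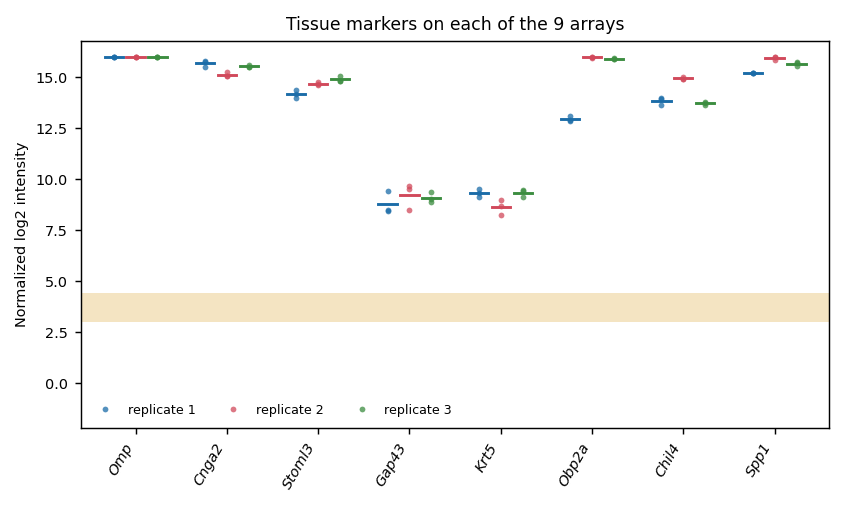
Normalized log2 intensity of 8 tissue markers, with 1 point per array, colours for the 3 replicates and short lines for replicate means; the shaded band spans the noise limits of the 9 arrays. Omp sits at the saturated top on every array, Obp2a is low in replicate 1 alone, and Gap43 and Krt5 lie near 9 with overlapping arrays.

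The 25 brightest named genes included neuronal genes, detoxifying enzymes, mucus proteins, and genes of respiration and the ribosome. They were each saturated on at least 1 array and 15 of them on all 9, so they have no order among themselves. The neuronal ones were Omp and S100a5, a calcium-binding protein of mature olfactory neurons. Cbr2, Cyp2f2, Akr1a1, Aldh2 and Gstm1 are enzymes that reduce, oxidize or conjugate carbonyls and foreign compounds. Scgb1c1 and Bpifb3 are proteins of the nasal secretion. Cox8a, Cox6a1, Cox4i1 and Atp5c1 belong to the mitochondrial respiratory chain, and Rps9, Rps27, Rpl41 and Rps21 to the ribosome. The remainder were Vcp, Plekhb1, Mt1, Cst3, Cd81, Elob, Spcs1 and Atf5. Vcp is a protein-unfolding ATPase, Mt1 a metal-binding metallothionein, Cst3 a secreted protease inhibitor and Atf5 a transcription factor linked to the choice and maturation of odorant receptor expression.

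Signal above noise was widespread. On all 9 arrays 13824 of 16637 named genes (83.1%) passed the noise limit, and 460 passed it on none. The 1664 brightest genes, 1 in 10 of the named ones, are called the top class below; its lower edge lay at 11.89. A list of cell type markers can be placed by the share of its measured members in that class and by the median percentile of its members among all named genes.

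Mature olfactory neuron genes were among the brightest. Of 22 measured, 14 lay in the top class, their median percentile was 97.5, and all 22 were above noise on all arrays. They cover the transduction chain: Gnal, the G protein alpha subunit, read 13.17, 13.52 and 13.06, Gng13 14.40, 14.41 and 13.92, and Cnga2 and Adcy3 are given above. Cystm1, a small membrane protein gene, was among the 4 brightest of the list, at 15.75, 15.32 and 15.57. Of the 22, 6 passed the F test (27.3%, against 14.8% of named genes), with 2 highest in each of the 3 replicates. Between 1 and 5 passed without 1 array, none without replicate 2, and 6 to 13 under the other settings. The 6 were Cnga2, Stoml3, Gng13, Pde4a, Faim2 and Kirrel2.

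Immature neuron genes formed the next layer of the lineage, with a median percentile of 81.8 and 7 of 16 in the top class. Stmn2, a regulator of microtubules in growing axons, was the brightest at 13.43, 13.25 and 13.80. Dpysl3 (13.18, 13.27, 13.60), Tubb3 (13.27, 13.27, 13.43) and Marcksl1 (13.01, 13.16, 13.26) followed. By their brightest probes these 3 cytoskeletal genes did not pass the F test, with adjusted p of 0.062, 0.58 and 0.32 (limma). For Marcksl1 the dimmer probes were divided. The brightest of them read 10.81, 9.85 and 10.96 and passed, lowest in replicate 2 (adjusted p = 0.0050, limma F test). The next also passed with replicate 2 lowest (adjusted p = 0.028), and the dimmest did not pass (adjusted p = 0.82). Whether Marcksl1 is even between replicates is therefore not settled.

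Dividing and basal cells contributed less signal. Globose basal progenitor and cell cycle genes had a median percentile of 56.3, with 2 of 14 in the top class: Hes6, a bHLH factor of neuronal progenitors, at 14.65, 14.42 and 14.64, and the replication clamp Pcna at 12.44, 13.18 and 12.36. Neurog1, which drives neuronal commitment, read 10.43, 10.02 and 9.84, and the mitotic gene Birc5 10.59, 10.21 and 10.57. Horizontal basal cell genes had a median percentile of 56.1, and Krt14 alone of 11 reached the top class, at 13.97, 13.65 and 13.65. Krt17 (11.87, 11.35, 11.78) was the one basal keratin that passed the F test, lowest in replicate 2 (adjusted p = 0.026).

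Sustentacular genes were again near the top, with a median percentile of 95.0 and 8 of 15 in the top class. Beside saturated Cbr2, Cyp1a2 read 15.71, 15.07 and 15.67 and Ugt2a2 15.23, 14.78 and 15.68. These enzymes of oxidation and glucuronidation both had replicate 2 lowest (adjusted p = 0.016 and 0.0066, limma F test). For Ugt2a2 the mean over all its probes gave no such difference, with a range of -0.06 (adjusted p = 0.91). Sult1c1, a sulfotransferase, read 14.07, 14.67 and 14.59 (adjusted p = 0.22).

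The detoxifying families differed in how many members were bright. Among glutathione transferases, which conjugate reactive compounds, 9 of 18 lay in the top class, led by saturated Gstm1, then Gsta4 (14.76, 14.43, 14.73), Gstm2 (14.75, 14.33, 14.74) and Gsta3 (14.24, 13.74, 13.98). The cytochrome P450 family was spread from noise to saturation: 50 of 64 were above noise on all arrays, 7 on none, and 7 were in the top class. Cyp2f2 was saturated throughout, and Cyp1a2, Cyp2g1 (13.64, 14.01, 14.10) and Cyp4v3 (13.20, 12.88, 13.14) followed. Of 11 UDP glucuronosyltransferases, Ugt2a2 and Ugt1a1 (12.68, 12.19, 12.42) reached the top class. Genes of these families share sequence, so signal between close members may be mixed.

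Gland and secretion genes had a median percentile of 97.8 over the 3 replicates, with 12 of 18 in the top class and 7 saturated on at least 1 array. That level leaned on replicate 2: the list's median was 12.49, 15.04 and 13.45 in replicates 1, 2 and 3, against 13.66, 13.61 and 13.48 for mature neuron genes, so gland genes lay above the neuron list in replicate 2 alone. Without replicate 2 their median percentile was 94.5, and that of mature neuron genes 97.4. Scgb1c1 was saturated on all 9 arrays and Bpifb3 on 6. Bpifa1 (15.56, 15.95, 15.62) and Bpifb6 (15.29, 15.12, 15.37), of the family of bactericidal permeability-increasing-like proteins, followed with no call between replicates (adjusted p = 0.095 and 0.22, limma F test). Lyz1, a lysozyme, was the dimmest member at 5.15, 4.99 and 4.67.

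Other cells of the surface gave intermediate medians. Ciliated and respiratory epithelium had a median percentile of 68.8, with Rsph1 (14.16, 13.99, 14.16) and Dynlrb2 (14.44, 13.86, 13.97), parts of motile cilia and their motors, in the top class beside Cyp2f2. Microvillar and tuft cell genes lay lower, at a median percentile of 36.1, though Ascl3 (12.79, 12.45, 12.63) and Plcb2 (12.44, 12.57, 12.01) were in the top class. Trpm5, the cation channel of a microvillar type, read 10.64, 10.29 and 10.43. Chat, which makes acetylcholine, was below noise on all arrays.

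Tissues below and around the epithelium could also be read. Ensheathing glia genes had a median percentile of 73.3; Apoe read 14.98, 14.82 and 15.33, S100b 11.55, 11.66 and 11.13, and Sox10 11.61, 11.08 and 11.35, while Gfap read 4.44, 3.87 and 4.46. Bone and cartilage genes were bright, at a median percentile of 84.7 with 6 of 15 in the top class, led by Spp1, Mmp13 (14.67, 15.22, 14.73), Col1a2 and Col1a1. Endothelium and mural cells (63.0), macrophages (63.0) and fibroblasts (56.1) lay near or above the middle. Acta2, the smooth muscle actin, reached 15.09, 15.19 and 15.41.

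Lists for tissues that a dissection could carry along differed in level. Skeletal muscle had a median percentile of 23.96 and fat 14.0, with none of their 12 and 7 measured genes in the top class. Olfactory bulb or brain genes lay at 40.8, the brightest being Nrgn at 10.69, 10.43 and 10.46. The vomeronasal neuron list lay at 33.3; Gnao1 (13.82, 14.19, 13.71) and Gnai2 (12.58, 12.81, 12.87), G proteins also used by other cells, were bright, whereas the vomeronasal channel gene Trpc2 read 8.21, 7.78 and 8.21. Lymphocyte genes lay at 39.3, with Cd79a (10.06, 10.07, 9.87) and Cd3e (9.98, 9.89, 10.003) above noise on all arrays. Of 3 measured red blood cell genes, 2 were above noise on all 9 arrays and 1 was below it on all 9. Their median percentile was 86.7, and Alas2 of heme synthesis read 12.74, 13.64 and 13.51. The globin genes of the list were not analysed here.

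**Figure D2:**
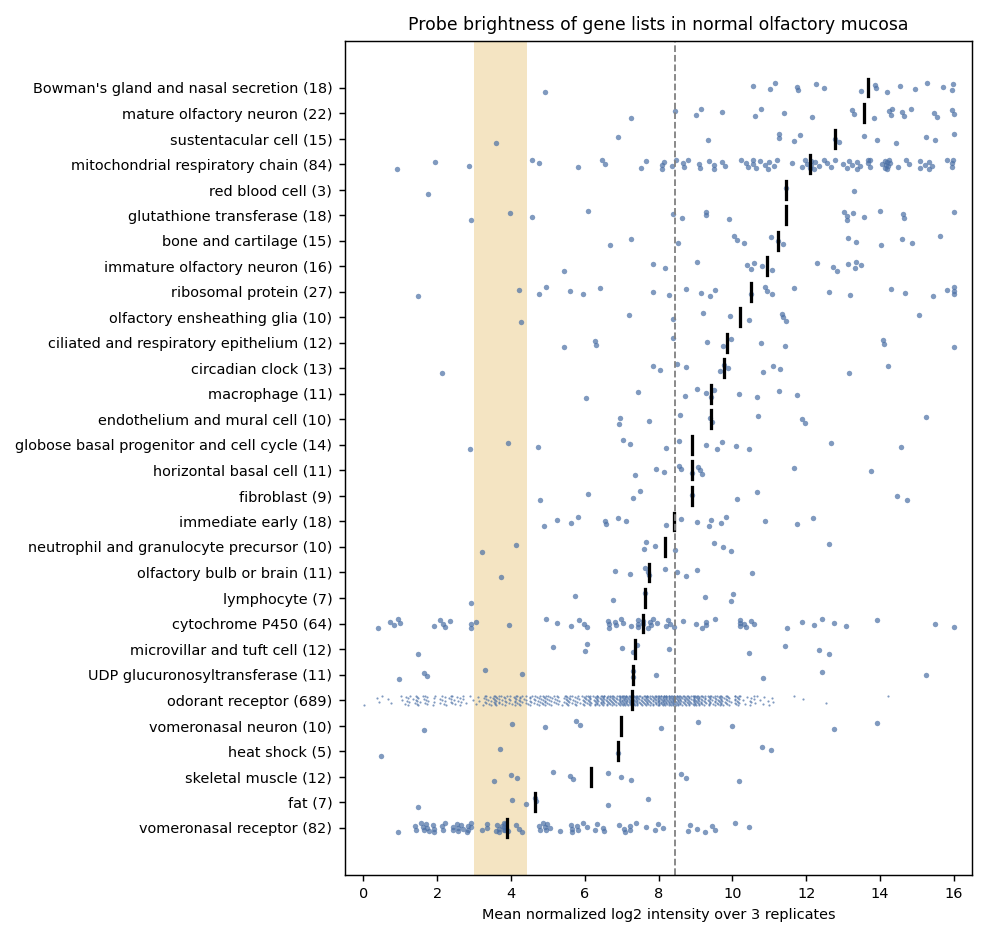
Mean normalized log2 intensity over the 3 replicates for each measured member of 30 gene lists, with the number of members in brackets, 1 point per gene and a black bar at the list median. The dashed line marks the median named gene (8.43) and the shaded band the noise limits; gland, mature neuron and sustentacular genes lie farthest to the right and vomeronasal receptors farthest to the left.

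Odorant receptors, each used by a small share of the neurons, were spread over the lower and middle range. Of 689 with a probe, 525 (76.2%) were above noise on all 9 arrays and 28 on none. Their median was 7.27, with quartiles at 5.25 and 8.53, and 3 reached the top class. The brightest was Olfr215, whose arrays read 13.89, 13.84 and 14.11 in replicate 1, 14.39, 14.44 and 14.50 in replicate 2, and 14.27, 14.38 and 14.10 in replicate 3. It was followed by Olfr544 (12.63, 12.25, 12.70 over the 3 replicates), Olfr1427 (11.87, 11.94, 11.89) and Olfr424 (11.50, 11.87, 11.60). The receptor genes are similar in sequence, and whether these probes bind 1 receptor or several was not tested. Vomeronasal receptors, which belong to a separate organ, were dimmer: 31 of 82 were above noise on all arrays, and the median level was 3.89. Their brightest were Vmn1r58 (10.72, 10.34, 10.25), Vmn1r229 (9.79, 10.28, 10.098), Vmn1r64 (9.73, 9.76, 9.08) and Vmn1r179 (9.29, 9.72, 9.29).

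**Figure D3:**
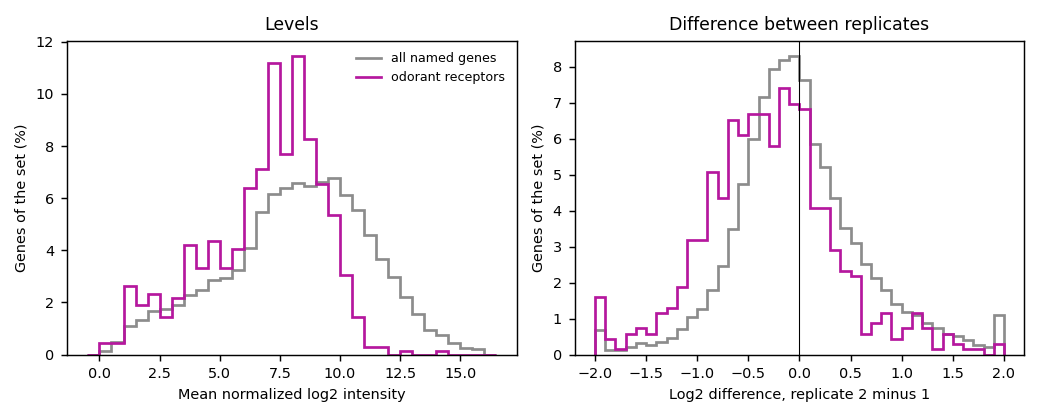
Distribution of 689 odorant receptors and of all 16637 named genes, as percent of each set. The left panel shows mean normalized log2 intensity, where receptors centre on 7.27; the right panel shows the log2 difference of replicate 2 minus replicate 1, with values beyond 2 in the outermost bins, where receptors lie left of all named genes.

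Turning from levels to differences between the replicates, 4161 of 29922 probes (13.9%) differed among the 3 replicates in limma's F test at an adjusted p under 0.05. Among named genes it was 2469 of 16637 (14.8%). Most of these differences were small: the median range between the highest and lowest replicate mean was 0.83 among the called genes, and 846 of them exceeded 1. The test sets the replicates against the spread of their repeat arrays, so its p-values compare these 3 RNA samples and not populations of mice. Arrays of 1 replicate may have been processed together, and replicate and processing cannot be told apart.

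Replicate 2 accounted for most of the called differences. Between replicates 1 and 2, 4756 probes (15.9%) were called, between 2 and 3 1912 (6.39%), and between 1 and 3 424 (1.42%). With replicate 2 left out, 59 probes were called, against 1261 without replicate 1 and 1436 without replicate 3. The number of calls also moved with single arrays, to 1433 without array 1a, 1858 without 1b, 783 without 2a and 1516 without 2b. It was 2006 without 3a, 2094 without 3b and 1669 without 3c. Without 2c it was 2970, and without 1c it rose to 5360. Of the called named genes, 1119 (6.73% of all) were highest in replicate 1, 782 (4.7%) in replicate 2 and 568 (3.41%) in replicate 3, and 1301 (7.82%) were lowest in replicate 2. Wide differences leaned the other way: of 90 called genes with a range over 2, 57 were highest in replicate 2, 10 in replicate 1 and 23 in replicate 3. These 90 leave out predicted symbols and had to be above noise on all 3 arrays of at least 1 replicate. A gene could thus enter through its high replicate alone. Without this filter, 29 of 52 called named genes with a range over 3 were highest in replicate 2.

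Lists shifted in replicate 2 in both directions. Against a median difference of -0.07 between replicates 2 and 1 over all named genes, the medians were 1.17 for neutrophil and granulocyte precursor genes, 1.09 for gland and secretion genes, 1.08 for fibroblast genes and 0.80 for bone and cartilage genes. Lower medians included those of glutathione transferases (-0.44), odorant receptors (-0.30), ribosomal proteins (-0.22) and the mitochondrial respiratory chain (-0.15). Without normalization the median of all named genes moved to 0.62, and with median centring to -0.20. Relative to that median, these 8 lists kept their side under all scalings tried. The olfactory bulb or brain (-0.21) and vomeronasal neuron (-0.15) lists had lower medians too. Relative to all named genes, the brain list lay between -0.19 and 0.02 over the scalings, and the vomeronasal list between -0.24 and -0.07.

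**Figure D4:**
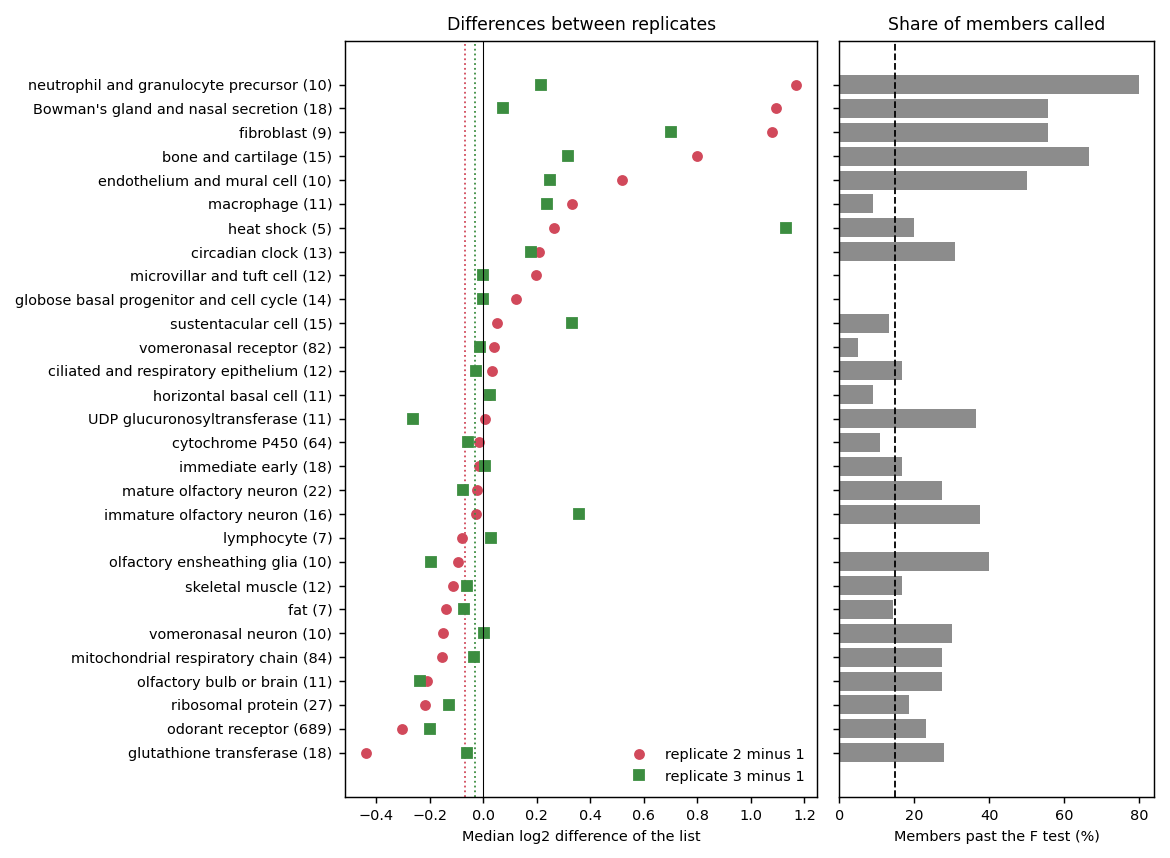
Left, median log2 difference of each list with 5 or more measured genes (number in brackets), replicate 2 minus 1 as circles and replicate 3 minus 1 as squares, with dotted lines at the medians of all named genes; right, percent of members past limma's F test, with a dashed line at the 14.8% of all named genes. Neutrophil, gland, fibroblast and bone genes are highest in replicate 2 and have the longest bars.

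Gland and secretion genes showed the widest spread of any cell type list. Of 18 measured, 10 passed the F test (55.6%, against 14.8% of named genes), and all 10 were highest in replicate 2. Under the other settings 7 to 14 passed, and 9 or 10 with any 1 array left out. Without replicate 2, 5 still passed, the highest number of the marker lists in that setting. The deposited intensity of Lcn4, a lipocalin that carries small hydrophobic molecules in mucus, was 146, 124 and 167 on the arrays of replicate 1. It was 68171, 69407 and 59674 in replicate 2, at saturation, and 3602, 3191 and 3234 in replicate 3. The 3 replicates thus formed 3 separate steps, 7.50, 15.99 and 11.82 after normalization, at least 359-fold apart (adjusted p = 1.3e-06, limma F test).

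The same 3 steps, replicate 1 lowest and replicate 2 highest, appeared in further secreted proteins. Dmbt1, a mucin-like scavenger protein, had intensities of 150, 175 and 145, then 37653, 32402 and 31936, then 1512, 1207 and 1243 in replicates 1, 2 and 3. The normalized range was 160-fold, with no overlap (adjusted p = 1.3e-06, limma F test). Lcn3 read 11.02, 15.99 and 13.43 and Obp1a 11.65, 15.9998 and 13.92, both saturated in replicate 2, with ranges of at least 31.4-fold and 20.4-fold (adjusted p = 5.6e-06 and 1.5e-05). Reg3g, an antibacterial lectin, read 13.66, 15.23 and 14.69 (adjusted p = 0.012). These lipocalins are related to each other, and whether their probes bind 1 gene each was not tested.

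In other secreted proteins replicate 2 was highest too, with another order of replicates 1 and 3. Ltf, the iron-binding lactoferrin of mucus and neutrophils, read 13.49, 14.72 and 13.48 (adjusted p = 0.0011, limma F test). Chil4, given above, also had replicates 1 and 3 close to each other. The mucin Muc5b read 11.21, 12.38 and 11.67 (adjusted p = 0.022), and Odam 11.39, 12.47 and 9.57 (adjusted p = 0.0061), lowest in replicate 3, where it lay further from replicate 1 than replicate 2 did. Among the 8 members that did not pass, Sox9, a transcription factor of the glands, read 12.42, 12.32 and 12.06 and the water channel Aqp5 12.57, 12.20 and 12.64 (adjusted p = 0.16 and 0.067). Outside the list, the secretoglobin Scgb1b27 (8.31, 12.23, 8.33) and Cabs1 (10.60, 12.81, 9.09) were among the 20 widest of all named genes.

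Promoters of 5 of these secreted proteins are shown. All 5 genes were called with replicate 2 highest and replicate 1 lowest. Dmbt1 and Muc5b were called with the same order and are not shown, so the 5 are a selection. The ranges of the 5 differed widely, and Obp2a was near its top in replicate 3 too. Each line holds the 100 bases before the gene's start on its own strand, from RefSeq on GRCm38.p6, with TATAAA, the core TATA box, in capitals.
Lcn3, chr2:25765433-25765532, plus strand: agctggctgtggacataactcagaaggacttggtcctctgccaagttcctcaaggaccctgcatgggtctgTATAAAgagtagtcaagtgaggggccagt
Obp1a, chrX:78091375-78091474, minus strand: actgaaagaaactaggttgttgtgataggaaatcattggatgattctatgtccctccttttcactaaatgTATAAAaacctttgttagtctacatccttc
Reg3g, chr6:78468875-78468974, minus strand: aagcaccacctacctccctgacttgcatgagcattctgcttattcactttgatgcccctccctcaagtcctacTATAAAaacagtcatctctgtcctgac
Obp2a, chr2:25699974-25700073, plus strand: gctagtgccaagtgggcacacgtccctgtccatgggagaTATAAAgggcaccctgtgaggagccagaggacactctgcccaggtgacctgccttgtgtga
Lcn4, chr2:26671283-26671382, minus strand: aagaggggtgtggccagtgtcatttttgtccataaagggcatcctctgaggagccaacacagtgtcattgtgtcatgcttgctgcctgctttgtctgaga

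TATAAA began 29, 30 and 27 bases before the start in Lcn3, Obp1a and Reg3g, and 61 bases before it in Obp2a. The letters do not occur in this window of Lcn4. Within 40 bases of the start and on the gene's strand, TATAAA was found in 5 of 16 promoters of the gland list (31.2%), those of Lcn3, Obp1a, Reg3g, Bpifa1 and Chil4. Among all 32851 promoters of the table it was 2.31%. In the 250 bases before the start, on either strand, the shares were 37.5% and 12.4%. The motif was searched after the values had been seen, and a match is a description and not a site. For the mature neuron list, the Ebf motif was searched on both strands of 250 bases and found in 0 of 29 promoters, against 0.779% of all promoters. These 29 promoters belong to 17 genes, and Omp had no promoter entry here. Only exact matches to the motif's fixed bases were counted. At so low a share among all promoters, 0 matches in 29 is likely for any list of this size. The count thus cannot tell whether mature neuron promoters hold Ebf sites.

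Cartilage and bone genes were the second list high in replicate 2. Of 15, 10 passed the F test (66.7%, against 14.8% of named genes), all highest in replicate 2, and 5 to 8 did with any 1 array left out. None passed without replicate 2, and 4 passed under median centring. Col2a1, the fibrillar collagen of cartilage, had intensities of 286, 300.1 and 287 in replicate 1, 10837, 10579 and 10708 in replicate 2, and 486, 516 and 561 in replicate 3. After normalization replicates 2 and 1 differed 27.6-fold (adjusted p = 2.4e-06, limma F test). A second probe agreed in order, at 6.43, 11.36 and 7.98, while another, dim one gave 5.70, 5.004 and 5.78.

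Other cartilage matrix genes followed Col2a1. The proteoglycan Acan read 7.51, 10.60 and 7.47, an 8.75-fold range (adjusted p = 3.6e-05, limma F test). Matn1, a matrilin of cartilage, had intensities of 9.07, 13.3 and 17.7 in replicate 1, 4413, 3545 and 4022 in replicate 2, and 12.3, 18.7 and 2.98 in replicate 3, at least 208-fold higher in replicate 2 than the noise limit. Ucma (4.31, 11.86, 4.57), made by chondrocytes, was at least 179-fold higher. Snorc (3.35, 10.04, 5.97), a chondrocyte proteoglycan, was at least 61.6-fold higher, and Cytl1 (8.30, 14.86, 8.90), a secreted cytokine-like protein, 94.4-fold. Col10a1 (4.95, 9.30, 5.81), the collagen of enlarged chondrocytes, had a 20.4-fold range. All these cartilage genes were highest in replicate 2, with replicates 1 and 3 near each other for Acan, Matn1, Ucma and Cytl1. Matn1, Ucma, Snorc, Cytl1 and Col10a1 are outside the list. They were named for their differences between replicates or after their values were seen, so their order is no separate support for the list.

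The collagens of general connective tissue differed by smaller steps. Col1a2 read 13.35, 15.60 and 14.86 and Col1a1 13.29, 14.54 and 14.22 (adjusted p = 0.0041 and 0.0042, limma F test), lowest in replicate 1. Sparc, a collagen-binding matrix protein, read 12.08, 14.21 and 13.12 (adjusted p = 0.0059). In the fibroblast list, 5 of 9 passed (55.6%, against 14.8% of named genes). They were Col3a1 (13.62, 15.16, 14.55), Dcn (14.20, 15.05, 14.90), Pdgfra (9.49, 10.57, 10.27), Fn1 (4.69, 7.56, 6.01) and Dpt (3.72, 5.76, 4.88). All 5 were highest in replicate 2 and lowest in replicate 1. With 1 array left out, 1 to 6 passed, the fewest, 1, without array 1a or 2a; under median centring 2 passed.

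Blood vessel and blood cell genes moved in the same direction in part. In the endothelium and mural cell list, 5 of 10 passed (50%, against 14.8% of named genes). Highest in replicate 2 were 4 of these: Vwf (9.11, 9.95, 9.14), Myh11 (11.46, 12.09, 12.06), Rgs5 (7.27, 8.48, 7.46) and Kdr (6.01, 7.55, 7.29). Cldn5, a junction protein of vessels, was highest in replicate 1 at 12.25, 11.78 and 11.88. With 1 array left out, 1 to 4 passed, 1 without array 2a. The red blood cell genes Alas2 and Slc4a1 (11.26, 11.97, 11.15) were highest in replicate 2 too (adjusted p = 0.010 and 0.0069, limma F test).

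Neutrophil and granulocyte precursor genes had the largest called share, 8 of 10 (80.0%, against 14.8% of named genes). All 10 members had replicate 2 as their highest. S100a8, an abundant calcium-binding protein of neutrophils, had intensities of 2362, 1965 and 3684 in replicate 1, 19025, 15786 and 18201 in replicate 2, and 5028, 4803 and 5243 in replicate 3. The normalized range was 5.79-fold (adjusted p = 0.0041, limma F test). Its partner S100a9 was above noise on 1 array each of replicates 1 and 3 and on all 3 of replicate 2, at least 6.32-fold higher there. The enzyme of primary granules Mpo (9.57, 10.55, 9.77), Retnlg (9.17, 10.53, 9.51), Camp (7.14, 8.61, 7.08), Ngp (8.07, 8.95, 8.29), Ctsg (7.65, 8.38, 7.68) and Prtn3 (9.57, 9.74, 9.15) also passed. With 1 array left out 3 to 8 passed, 3 without array 2a or 2b, and none without replicate 2. Of 11 macrophage genes 1 passed, C1qb, a complement subunit, which was lowest in replicate 2 (9.78, 8.67, 9.82, adjusted p = 0.0056). The list's median difference between replicates 2 and 1 was 0.33, above the -0.07 of all named genes, and 1 to 9 members passed under the other settings. None of 7 lymphocyte genes passed.

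Gland, cartilage, fibroblast and neutrophil genes therefore shared 1 sample as their highest. Cartilage, neutrophil and fibroblast genes moving with gland genes are given as measured, and their part in each other's differences was not tested. The brighter raw arrays of replicate 2 moved with them as well. After normalization the direction stayed the same for these lists, as given above.

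**Figure D5:**
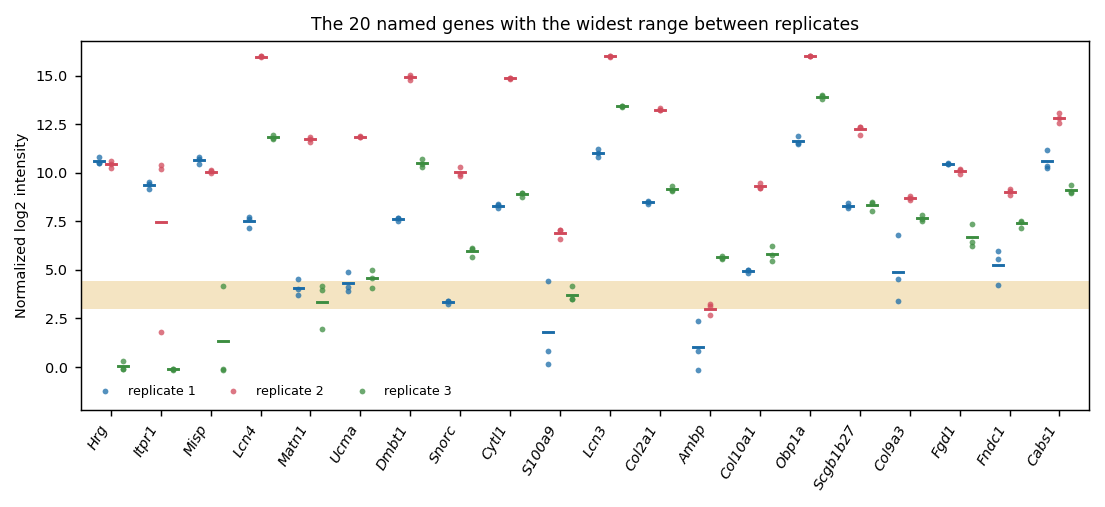
Normalized log2 intensity of the 20 named genes with the widest range between replicate means, 1 point per array, colours for the replicates and short lines for means; the shaded band spans the noise limits. In 15 of 20 genes replicate 2 is highest, among them lipocalins, Dmbt1 and cartilage genes, while Hrg and Itpr1 lie below the band on all arrays of replicate 3 and Misp on 2 of them. Genes shown had to be above noise on all 3 arrays of at least 1 replicate, so some enter through their high replicate alone.

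A few of the widest differences had another form, with replicate 3 low. For Hrg, Misp and Itpr1 that replicate read near or below noise. Hrg, a plasma glycoprotein, had intensities of 1264, 1711 and 1202 in replicate 1 and 1826, 1941 and 1421 in replicate 2. In replicate 3 it read -8.19, 0.98 and -3.97, all below noise, at least 111-fold lower (adjusted p = 4.0e-07, limma F test). Misp, an actin-bundling protein of dividing cells, read 10.67, 10.06 and 1.32, with 1 array of replicate 3 just above noise. Itpr1, a calcium channel of the endoplasmic reticulum, read 9.38, 7.48 and -0.10, but array 2b of replicate 2 gave an intensity of 7.42 against 1592 and 1598 on 2a and 2c. Fgd1, a guanine nucleotide exchange factor, was lower in replicate 3 on all its arrays (10.46, 10.099, 6.69, adjusted p = 0.0011, limma F test). Its mean there still lay above the noise limits of those arrays, 3.54 to 3.99 on the normalized scale. Each of these 4 genes has 1 probe here, so none can be checked against another probe.

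The remaining members of the widest 20 were dimmer or less even. Col9a3, a cartilage collagen, read 4.90, 8.71 and 7.66 with a spread of 1.73 (SD) over the arrays of replicate 1. Ambp, a plasma protein precursor, was above noise on all arrays in replicate 3 alone (1.02, 3.003, 5.64), at least 2.91-fold higher. Fndc1 read 5.26, 9.03 and 7.40, whereas its second probe gave 6.88, 6.09 and 5.88 (adjusted p = 0.23), so its probes disagree.

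Odorant receptors were the largest group lower in replicate 2. Of 689, 160 passed the F test (23.2%, against 14.8% of named genes), 111 of them highest in replicate 1 and 130 lowest in replicate 2. Of all 2469 called named genes, 1119 were highest in replicate 1 and 1301 lowest in replicate 2. Of 151 called between replicates 1 and 2, 145 were higher in replicate 1, the direction of 9.18% of all probes, and of 57 called between 2 and 3, 55 were higher in replicate 3, the direction of 3.69% of all probes. Between replicates 2 and 1, 485 receptors (70.4%) were lower in replicate 2, against 55.6% of all named genes, and 448 (65.0%) were lower in replicate 2 than in 3, against 53.6%. The median range among the called receptors was 0.94, less than a doubling, and the widest 3.05. Leaving out 1 array left 50 to 163 calls, the fewest without 2a, and leaving out replicate 2 left 4. The brightest receptors did not all follow: Olfr215 was highest in replicate 2 (adjusted p = 0.067), Olfr544 lowest there (adjusted p = 0.037), and Olfr1427 nearly level (adjusted p = 0.90, limma F test).

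Single neuronal genes were lower in replicate 2 as well, while the lists as wholes depended on the pair of replicates compared. Faim2, an inhibitor of cell death in neurons, read 9.38 ± 0.09, 8.06 ± 0.07 and 9.62 ± 0.04 (SD over 3 arrays each), 2.96-fold apart (adjusted p = 0.00076, limma F test). Kirrel2, an axon-sorting adhesion protein that depends on neuronal activity, went the other way at 9.54, 10.27 and 9.30 (adjusted p = 0.019). Pde4a read 11.09, 10.36 and 10.86. The median of the mature neuron list, relative to all named genes, lay between -0.46 and 0.05 for replicate 2 minus 1 over the scalings, so that difference has no settled direction. For replicate 3 minus 2 it kept 1 side, between 0.03 and 0.41. The immature neuron list lay between -0.33 and 0.05 for replicate 2 minus 1. It lay between 0.20 and 0.40 for 3 minus 2, and between 0.31 and 0.39 for 3 minus 1.

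For reference, 1301 of all 2469 called named genes were lowest in replicate 2. In the immature neuron list, 6 of 16 passed (37.5%, against 14.8% of named genes), 4 of them lowest in replicate 2. These were Gng8, a G protein gamma subunit of young receptor neurons (12.70, 11.62, 12.53, adjusted p = 0.011), Stmn4 (11.32, 10.23, 11.69, adjusted p = 0.013), Cxcr4, a chemokine receptor (7.97, 7.22, 8.32, adjusted p = 0.022), and Stmn2 (adjusted p = 0.031, limma F test). Dpysl5 (10.14, 10.82, 10.75) and Ncam1 (12.47, 13.14, 12.89) were lowest in replicate 1. Leaving out 1 array left 0 to 6 calls. Ensheathing glia genes gave 4 calls of 10 (40%, against 14.8% of named genes). Npy (10.47, 9.36, 9.997), Cnp (9.51, 8.66, 9.39) and Sox10 were lowest in replicate 2, and S100b was lowest in replicate 3.

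In 3 metabolic families most of the called genes were lowest in replicate 2, as were 1301 of all 2469 called named genes. Of 84 mitochondrial respiratory chain genes, 23 passed (27.4%, against 14.8% of named genes), 18 of them lowest in replicate 2. Others ran the opposite way, among them the ATP synthase subunits Atp5a1 (11.21, 12.55, 11.92, adjusted p = 0.034) and Atp5g3 (10.42, 11.24, 10.02, adjusted p = 0.031, limma F test), highest in replicate 2. Cox15, needed to build cytochrome oxidase, read 9.98, 8.47 and 10.07 (adjusted p = 0.0037), the complex I subunit Ndufs3 10.72, 9.88 and 10.48, and Cox8b 11.12, 10.03 and 10.54. Leaving out 1 array left 2 to 34 calls, the fewest without 2a. The 5 of 18 glutathione transferases that passed (27.8%), Gstk1 (13.60, 12.76, 13.41), Gstm4 (10.31, 9.26, 10.15), Gstm5 (13.49, 12.75, 13.10), Gsta3 and Gsto2 (8.61, 8.09, 8.49), were all lowest in replicate 2 and highest in replicate 1. So were the 5 ribosomal proteins that passed of 27, Rpl21, Rpl29, Rpl31, Rpl38 and Rps19, a share of 18.5% near the 14.8% of named genes. Between 0 and 6 ribosomal proteins passed without 1 array, and none without replicate 2. Without normalization the order of Gsto2 turned, at -0.24 (adjusted p = 0.30, limma F test).

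Other enzyme families gave mixed orders. Of 64 cytochrome P450 genes, 7 passed (10.9%), near the 14.8% of named genes, with Cyp1a2 lowest in replicate 2, Cyp2e1 (12.03, 12.83, 12.40) highest in it, and Cyp2d26 (8.57, 8.29, 7.74) lowest in replicate 3. Of 11 glucuronosyltransferases, 4 passed (36.4%, against 14.8% of named genes). By their brightest probes Ugt2a2, Ugt1a1, Ugt8a (11.31, 10.42, 10.72) and Ugt2a3 were all lowest in replicate 2. Most of the many dimmer Ugt1a1 probes did not pass, and some of those had replicate 2 highest. The dimmer ones that passed were lowest in replicate 2. For Ugt2a2 the mean over all its probes showed no such difference, as given above. Among vomeronasal receptors 4 of 82 passed (4.88%), Vmn1r70 (8.39, 7.66, 8.27), Vmn1r214 (7.08, 5.51, 6.96), Vmn1r233 (6.36, 5.99, 5.81) and Vmn1r178 (4.93, 6.25, 5.81).

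Genes that respond within hours of handling or light were checked as well. Of 18 immediate early genes, 3 passed (16.7%, near the 14.8% of named genes), and 3 to 12 did under the other settings. These were Ccn1, a matrix signalling protein, higher in replicate 3 (7.69, 7.56, 9.36, adjusted p = 0.00076), Egr1, lower in replicate 1 (9.06, 10.01, 10.02, adjusted p = 0.0090), and Fosb (4.97, 6.69, 5.21, adjusted p = 0.036, limma F test). Fos read 9.31, 9.34 and 9.59. Of 13 circadian genes, 4 passed (30.8%, against 14.8% of named genes). Per1 (7.71, 8.33, 7.53), Per2 (13.14, 13.43, 12.88) and Per3 (10.74, 11.61, 10.92) had replicate 2 highest and Dbp (9.77, 9.57, 10.29) had replicate 3 highest. A second Per3 probe read 8.95, 9.15 and 9.39, highest in replicate 3 (adjusted p = 0.20, limma F test). Second probes of Gstk1 (11.78, 11.83, 12.04) and Ncam1 (9.78, 9.51, 9.52) did not pass either (adjusted p = 0.40 and 0.51). With 1 array left out, 0 to 6 of the circadian genes passed.

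In 5 cell type lists of the epithelium the called share lay near or below the 14.8% of named genes. Outside the epithelium the same held for lymphocyte (0%), macrophage (9.09%), fat (14.3%) and skeletal muscle (16.7%) genes. In the epithelium, none of 14 globose basal progenitor and cell cycle genes and none of 12 microvillar and tuft cell genes passed the F test. There 1 of 11 horizontal basal cell genes, 2 of 15 sustentacular genes and 2 of 12 ciliated and respiratory epithelium genes did. Across the other settings up to 7, 5, 6, 6 and 7 members passed, in that order. The ciliated genes that passed were Dnah9 (9.57, 10.26, 9.38) and Dynlrb2. The median range of these 5 epithelial lists lay between 0.26 for horizontal basal cells and 0.61 for progenitors, against 0.50 for all named genes.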

How the data were processed

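The deposited table holds linear probe intensity values of 1-colour Cy5 arrays of amplified total RNA, per the labels' protocols. Scanner, background method and normalization were not stated in the labels read here; negative values show that a background had been subtracted. Numbers in the titles were taken to mark biological replicates and letters repeat arrays. A floor of 0.912, the smallest intensity above 0, replaced values at or below 0, and all were taken to log2 and quantile normalized over the 9 arrays. limma 3.58.1 in R 4.3.3 fitted the 3 replicates, with repeat arrays as residual spread, and tested them by an F test and by pairs (two-sided), with Benjamini-Hochberg adjustment over all 29922 probes and a threshold of 0.05. The noise limit is 3 times the root mean square of an array's values below 0. A bound ("at least") uses the noise limit for a dim replicate and the saturated value for a bright one. The number of arrays limits the precision.

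Symbols came from the array's annotation table, which names 21020 probes and leaves 8902 unnamed; 2728 symbols were updated and 42 not found in RefSeq's GRCm38.p6 table, and no probe had several. Promoters came from RefSeq on that build; the test was tried on simulated data. Named were 8 markers, the 25 brightest genes, the 20 widest called ranges above noise, the 10 smallest adjusted p, and for each list up to 4 brightest and 3 smallest called p (for odorant receptors the 4 brightest), leaving out predicted and accession-like symbols in the brightest, widest and smallest-p groups. The other genes named with a value were chosen after their values were seen. Members and lists were chosen with earlier results of these data known. Alternatives covered normalization, floor, offset, dim probes, representative probe, prior, and each replicate and array left out.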

Additional observations from a re-analysis of the deposited data

Results flagged for a closer look

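The noise limit of array 2c, the third array of normal replicate 2, was 24.1 intensity units and lay apart from the other 8 arrays, which ranged from 11.9 to 15.2. The gap to the next array was large for 9 values; a check of this kind picks out about 1 in 20 groups by chance. Array 2c also had the highest share of probes below noise, 19.8%, against 8.57% and 10.04% on 2a and 2b. Without array 2c, 277 probes were called between replicates 1 and 3, against 424 with it. Its part in the differences of replicate 2 was not tested further.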

How the results depend on the processing

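No paired analysis was possible because 1 group was described and its replicates are the units compared. The F test called 4161 probes; it called 11787 without normalization, 6889 with an offset of 50, 6931 with a trended and robust prior and 6283 without probes that were dim or saturated on any array (a choice made after seeing the data). Between replicates 1 and 3 the 424 calls became 972 without normalization, 215 with median centring, 1553 with a floor of 16, 1875 with the offset, 965 without dim probes, 2164 with the prior and 1399 without dim or saturated probes. Between replicates 2 and 3 the 1912 became 8313, 1250 with median centring, 3319 with the floor, 3203 with the offset, 3334 with the prior and 2947. Between replicates 1 and 2 the 4756 became 12096 without normalization. Median centring called 1 probe between letters. Leaving out 1 replicate or array gave 59 to 5360 calls by the F test, 1154 to 5755 between replicates 1 and 2, 38 to 1782 between 1 and 3, and 500 to 2035 between 2 and 3, and 0 to 4 between letters. Reversed orders were those of Vmn1r70 (-0.043) and Gsto2 (-0.24) without normalization, Omp (-0.66) and Spp1 (-0.074) with median centring, and Ugt2a2 (-0.059) with the mean of all probes; the cause was not tested. Over the 127 genes followed, 1101 of 1244 values kept order and side of the threshold, 106 fell short of it, 32 newly passed it and these 5 reversed. Saturation and noise limit what can be read of the brightest and dimmest genes.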
